A study of Danio rerio with 20 samples.

Results

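The axon guidance ligands and receptors of the table were described in oligodendrocyte precursor cells (OPCs, dividing and migrating glial cells that become the oligodendrocytes that make myelin), which had been sorted from zebrafish. They were taken by gene name as every row of the semaphorins (sema), plexins (plxn), neuropilins (nrp), Eph receptors and ephrins (eph and efn, classes A and B), Slit ligands, Robo receptors, netrins (ntn), Dcc and Unc5 receptors, which gave 94 of 31743 rows. They held 29 semaphorins, 12 plexins, 8 EphA receptors, 8 ephrin-A genes, 7 EphB receptors, 5 ephrin-B genes, 5 netrins, 5 Robo genes, 5 Unc5 genes, 4 neuropilins, 4 Slit genes and dcc. The remaining row, unc50, matched by the letters of its name and is not an Unc5 receptor, so 93 rows are guidance genes by name; unc50 passed the filter on low counts in no comparison. The names plxnb2a and robo2 each stand on 2 rows with different gene identifiers, which were not shown to be the same gene. The 2 plxnb2a rows overlap on the minus strand of chromosome 4 (14449233 to 14531687 and 14481835 to 14624481). They were not shown to be separate genes either, and both are kept in counts and sums of plexin rows.

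RNA was sequenced from transcript 3' ends in 20 libraries, after 16 h of treatment. The 4 groups held 5 libraries each and are called, as in the labels, 4AP (4-aminopyridine, a blocker of voltage-gated potassium channels that raises neuronal activity), 4AP control, demyelination (capsaicin acting on the TRPV1 channel) and demyelination control. The age of the fish, the transgene that marked OPCs for sorting, the cells that carried TRPV1 and the number of fish behind a sample are not given in the sources used here. Nothing says that samples of a group came from separate fish or sorts, so p-values measure the spread between these samples, which may be technical. Treated groups were set against their own controls, and the 2 responses were then compared directly.

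Guidance ligands tell a growing axon or a migrating cell where to go. Semaphorins of class 3 are secreted and act through a neuropilin, which binds the ligand, and an A-type plexin, which signals. Ephrins are held on the cell surface and bind Eph receptor tyrosine kinases on the neighbouring cell. Slit ligands act through Robo receptors, and netrins attract through Dcc or repel through Unc5. OPCs use several of these systems when they migrate, and in rodents class 3 semaphorins and netrin-1 are known to steer OPCs.

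Total gene reads, in which exon and intron reads are added, ranged from 356494 to 1744483 in 4AP, from 163158 to 897620 in 4AP control, from 38314 to 3528970 in demyelination and from 1180 to 282966 in demyelination control. Demyelination control 1, with 1180 reads in all and 9 in guidance genes, stands apart, and values of that group are given without it where it decides them. The names of the deposited tables carry a prefix whose meaning is not stated. It is P2 for all 4AP libraries and for 4AP control 5, P1 for 4AP controls 1 to 4, and P3 for the whole demyelination experiment. Of 10 OPC markers, among them olig2, sox10 and pdgfra, all 10 had reads in each group. All listed neuronal, endothelial, muscle, epidermal and exocrine pancreas markers did too, so this does not tell OPCs from other cells. The OPC markers summed to 724 to 932 counts per 1000000 gene reads (CPM) in 4AP and 260 to 601 CPM in 4AP control. Their sum was 343 to 625 CPM in demyelination and 564 to 710 CPM in demyelination controls 2 to 5. Markers of other cells were also read: the 6 exocrine pancreas genes summed to 4549 to 10125 CPM in 4AP and 9260 to 24424 CPM in 4AP control. The 4 epidermal genes summed to 4369 to 8932 CPM in 4AP and 4024 to 10318 CPM in 4AP control. For the 6 muscle genes it was 1239 to 4923 CPM in 4AP and 2417 to 4578 CPM in 4AP control. All of these sums were above those of the OPC markers in the same groups.

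Most guidance reads came from introns. Intron reads made up 71.3% of the reads of semaphorins over all 20 libraries, 88.5% for plexins, 87.7% for neuropilins, 86.6% for EphA receptors, 84.4% for Robo and 97.1% for Unc5 receptors, but 56.0% for Slit ligands and 55.0% for netrins. Over all gene reads of a library the intron share was 24.3% to 29.8% in 4AP, 34.3% to 38.5% in 4AP controls 1 to 4 and 20.5% in 4AP control 5. In the demyelination experiment it was 34.8% to 41.4%. Guidance genes are also long: the 44 rows tested in the 4AP experiment had a median span of 133 kb and a median intron share of 73.3%, against 24.5 kb and 15.4% over the 5161 genes tested. A read in an intron was counted with the gene it lies in, and unspliced RNA cannot be told apart here from other sources of intron reads. Of the 94 rows, 29 overlap at least 1 other row of the table, and plxnd1, whose row spans only 1.24 kb, had 0 reads in all 20 libraries.

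Levels below are CPM after library totals were scaled with TMM (trimmed mean of M values), called normalised CPM, in the order of replicates 1 to 5. The summed level of all guidance rows was 2844, 3187, 2931, 3361 and 4042 normalised CPM in 4AP and 2691, 2713, 2560.2, 2219.9 and 2598 normalised CPM in 4AP control. Every 4AP library was above every 4AP control library. The mean was 3273 ± 476 in 4AP and 2556 ± 198 in 4AP control (SD, n = 5 each). The exon sums alone overlapped, with 852 to 1022 normalised CPM in 4AP and 548 to 952 in 4AP control. So did the intron sums, with 1871 to 3128 in 4AP and 1563 to 2165 in 4AP control. Without the semaphorins sema3gb and sema5a the groups overlapped too, with 2329 to 3436 in 4AP and 1721 to 2428 in 4AP control. In these bulk libraries fewer cells of a type and less RNA per cell cannot be told apart.

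**Figure D1:**
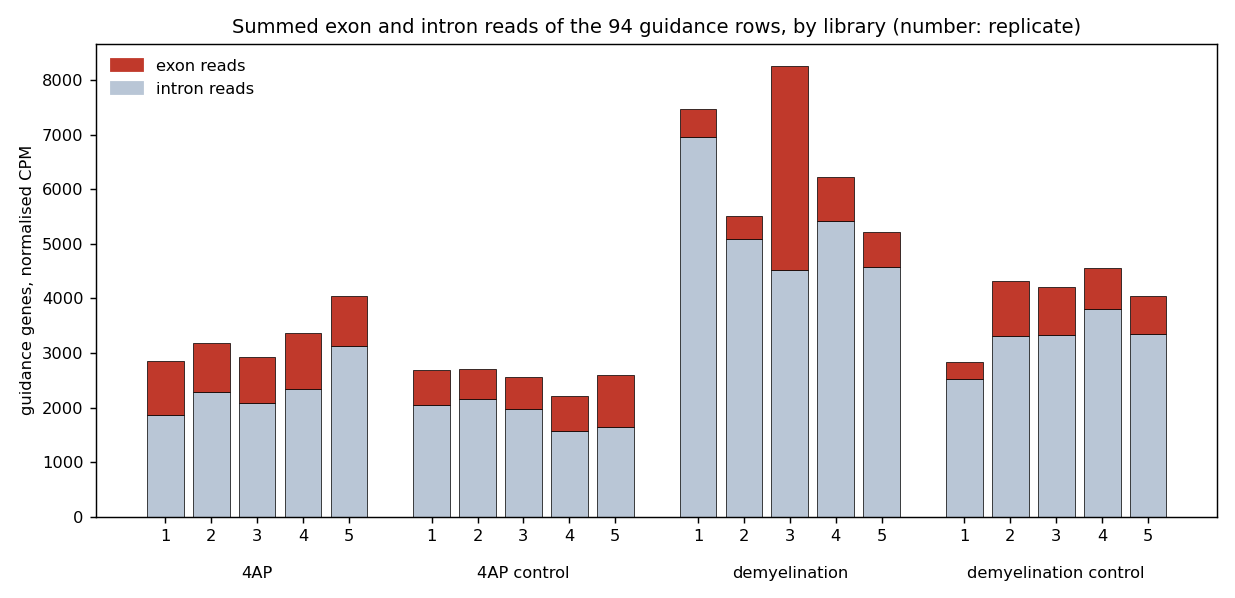
Summed normalised CPM of the 94 guidance rows in each library (bars, replicates 1 to 5 of each group from left to right), split into intron reads and exon reads. Intron reads are the larger part in every library, and demyelination 3 has the highest exon level, 3720 normalised CPM.

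The 4AP comparison asks how OPCs differed after a drug that raises neuronal activity. Of the 94 rows, 44 passed the filter on low counts, and 8 of them (18.2%) were called at an adjusted p under 0.05 (edgeR's quasi-likelihood test, Benjamini-Hochberg adjustment over all genes). Among all 5161 genes tested 13.1% were called. The semaphorin receptors plxna3, plxna1a and nrp2a, the ephrin receptor epha3 and the ligand ntn1a rose, and the receptors epha6 and nrp2b and the ligand sema4ab fell. The 5 rises were 11.4% of the members tested, against 2.98% of all genes, and the 3 falls were 6.82%, against 10.1% of all genes. With library totals in place of TMM the split over all genes was 360 higher and 241 lower, in place of 154 and 520, and the guidance genes called were 7 higher and 0 lower.

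The median log2 fold change was 0.66 over the 44 guidance rows and 0.19 over all genes, and 36 of 44 rows (81.8%) had a fold change above 0, against 57.1% of all genes. Genes with a like make-up had medians close to this. The 1520 genes with over 50% of their reads in introns had a median of 0.61 and 6.18% were called higher, and the 728 genes at least as long as the median guidance gene had a median of 0.70, with 9.62% called higher and 3.30% lower. Groups did not overlap for 6 of 44 guidance rows (13.6%), against 9.53% of all genes. These 6 were plxna3, nrp2a, plxna1a, epha3, ntn1a and the uncalled sema4c. With library totals in place of TMM there were 11 rows, or 25% of the 44, against 13.1% of all genes, all higher in 4AP: the same 6 and the uncalled sema6dl, slit3, plxna4, sema6e and efna2a.

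**Figure D2:**
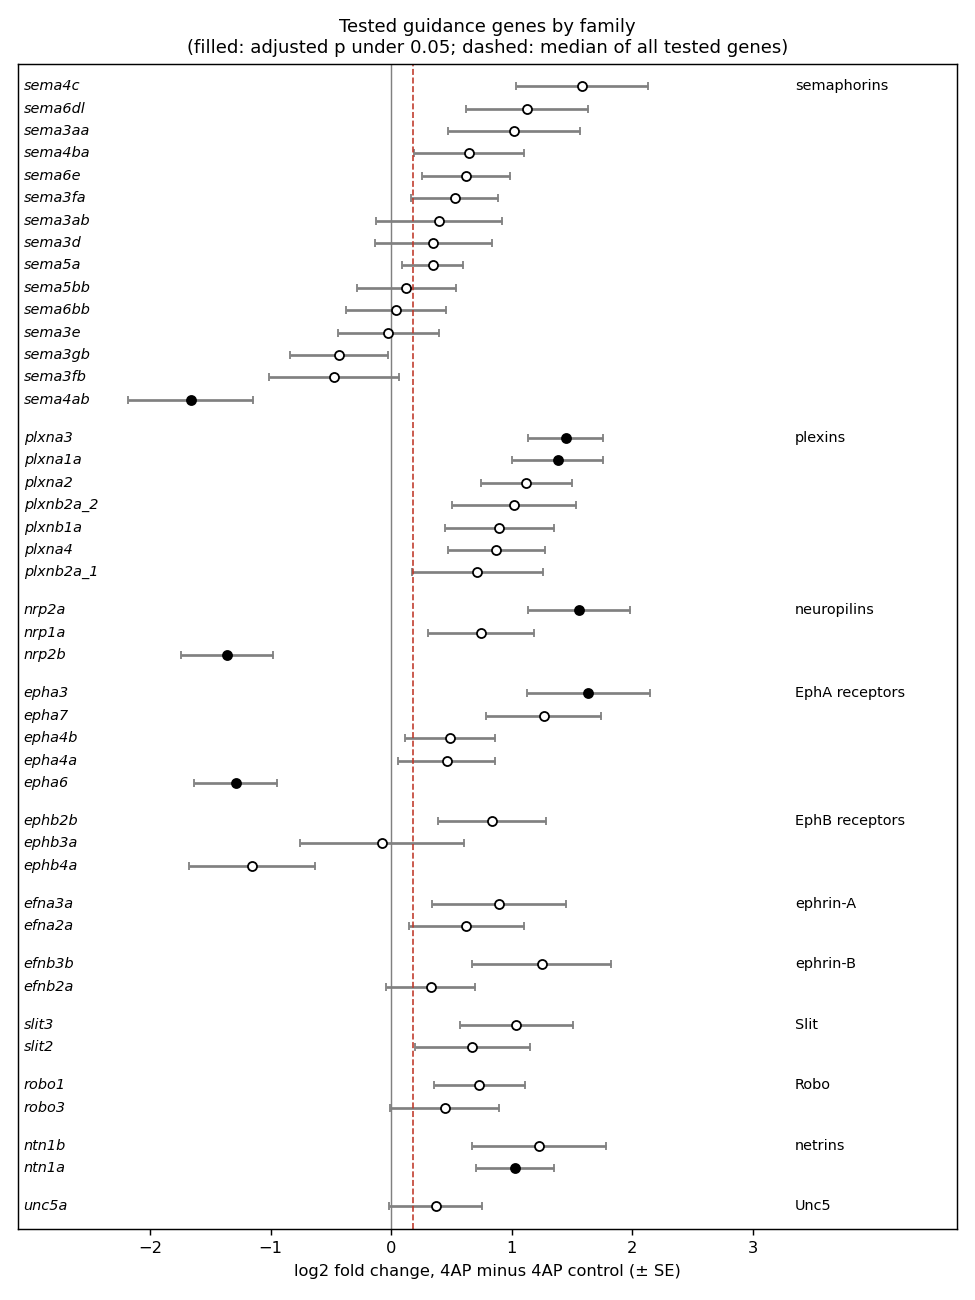
Log2 fold change of 4AP minus 4AP control with its SE for the 44 tested guidance rows, grouped by family from top to bottom. Filled points passed an adjusted p of 0.05, and the dashed line is the median of all 5161 genes, 0.19. All 7 tested plexin rows lie above 0, and the neuropilins nrp2a and nrp2b lie on opposite sides.

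Plexins are the signalling receptors of semaphorins, and all 7 of the 12 plexin rows that passed the filter had a fold change above 0, with a median of 1.02. Among the 7 are both of the overlapping plxnb2a rows, which may not be separate. The summed level of all 12 plexin rows was 385, 422, 503, 547 and 656 normalised CPM in 4AP and 171, 147, 180.01, 204 and 342 normalised CPM in 4AP control. The 5 4AP libraries lay above the 5 controls, of which control 5 was the highest. The A-type genes alone averaged 336 ± 72.2 normalised CPM in 4AP and 132 ± 35.5 in 4AP control, and the B-type genes 162 ± 35.3 in 4AP and 76.4 ± 50.04 in 4AP control (SD, n = 5 each).

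Positions are those of the deposited tables, for which the submitters' processing notes name GRCz11. The gene plxna3 (chromosome 8, 9222684 to 9570511, minus strand) encodes an A-type plexin that in zebrafish guides motor axons as they leave the spinal cord. It had 143, 101, 139, 139 and 181 normalised CPM in 4AP libraries and 49.4, 40.9, 45.003, 32.8 and 76.3 in 4AP control libraries. The groups did not overlap. The log2 fold change was 1.45 ± 0.31 (SE, adjusted p = 0.00849, edgeR). It was called in each of the 10 fits that left out 1 library, with adjusted p (edgeR) of at most 0.0340. Of its reads in this experiment 94.8% were intronic.

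A second A-type plexin, plxna1a (chromosome 23, 34321237 to 34753811, plus strand), had 62.9, 91.02, 90.3, 101 and 136 normalised CPM in 4AP and 49.4, 28.6, 20.002, 13.1 and 58.1 in 4AP control. The groups did not overlap, although 4AP 1 and 4AP control 5 were close. Its fold change on the log2 scale was 1.38 ± 0.38 (SE, adjusted p = 0.0255, edgeR). The call was lost in 4 of 10 fits without 1 library. The related plxna2 came just short, with a log2 fold change of 1.12 ± 0.38 (adjusted p = 0.0565, edgeR), and plxna4 had 0.87 ± 0.40 (adjusted p = 0.142, edgeR).

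Neuropilins bind class 3 semaphorins and, as co-receptors, vascular growth factors. The zebrafish duplicate nrp2a rose and nrp2b fell. With a term for the prefix nrp2b was at 0.13 on the log2 scale, against 0.68 for nrp2a. With P2 libraries only nrp2b was at 0.14. Both of these fits set the 4AP libraries against 4AP control 5 alone, so they rest on the same comparison. The gene nrp2a (chromosome 1, 5606460 to 5746030, minus strand) had 52.8, 86.96, 55.2, 61.4 and 78.7 normalised CPM in 4AP and 15.2, 12.3, 5.0004, 26.3 and 42.1 in 4AP control. No 4AP library fell within the control range, and control 5 was the highest control. Its log2 fold change was 1.56 ± 0.42 (SE, adjusted p = 0.0253, edgeR), and the call was lost in 5 of 10 fits without 1 library.

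The level of nrp2b (chromosome 9, 14367570 to 14504834, minus strand) was 151, 206, 115, 178 and 202 normalised CPM in 4AP and 635, 659, 565, 184 and 156 in 4AP control. Controls 1 to 3 were far above the rest, and controls 4 and 5 lay within the 4AP range. The fitted log2 fold change was -1.36 ± 0.38 (SE, adjusted p = 0.0288, edgeR). In 4AP controls 1 to 3 nrp2b had 4 exon reads and 437 intron reads in all. The call was lost in 8 of 10 fits without 1 library, and with unique gene reads the log2 fold change was -0.89 (adjusted p = 0.0612, edgeR). Over the 20 libraries only 1001 of the 1926 reads of nrp2b were unique gene reads. The neuropilin sum averaged 284 ± 53.03 normalised CPM in 4AP and 489 ± 233 in 4AP control, and without nrp2b 114 ± 17.8 in 4AP and 49.3 ± 26.7 in 4AP control (SD, n = 5 each). The third neuropilin tested, nrp1a, had a log2 fold change of 0.75 ± 0.44 (adjusted p = 0.234, edgeR).

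**Figure D3:**
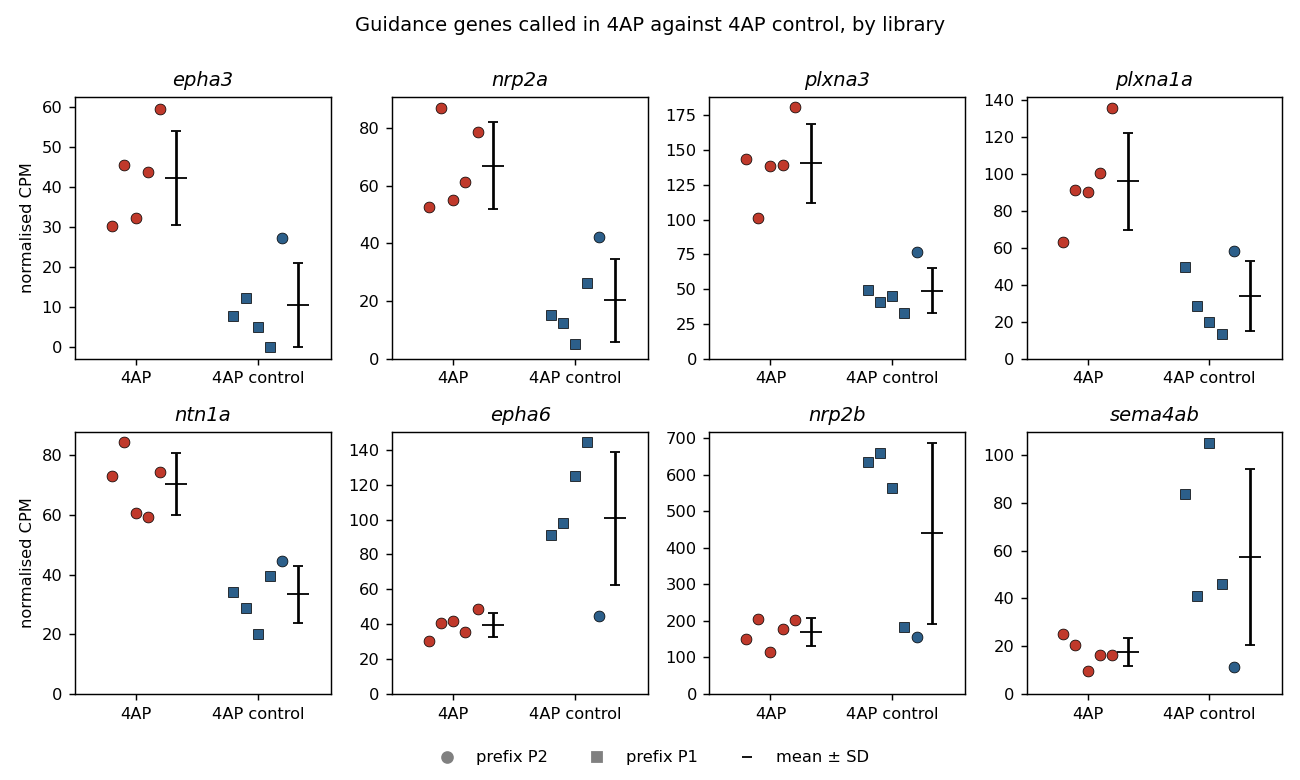
Normalised CPM of the 8 called guidance genes in each library, 4AP left of 4AP control, with the group mean and SD beside the points. Circles are libraries with prefix P2 and squares those with P1. Among the controls the only circle, control 5, is the highest for the 5 genes that rose and the lowest for the 3 that fell. Over all 44 tested guidance rows control 5 was the highest control for 16 and the lowest for 4.

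Of the 29 semaphorins 15 passed the filter, and sema4ab was the only 1 called. It encodes a membrane-bound class 4 semaphorin (chromosome 19, 24324967 to 24392370, plus strand) and had 25.1, 20.3, 9.43, 16.1 and 16.3 normalised CPM in 4AP and 83.6, 40.9, 105, 45.97 and 11.4 in 4AP control. The 4 controls with prefix P1 were above all 4AP libraries, and control 5 was within their range. Its log2 fold change was -1.66 ± 0.52 (SE, adjusted p = 0.0410, edgeR), and the call was lost in 9 of 10 fits without 1 library. In the 4 P1 controls 56 of its 60 reads were exonic, whereas in 4AP 24 of 92 were. The kind of read that carried this low gene therefore differed between the P1 controls and 4AP.

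The semaphorin with the most reads was sema5a (chromosome 24, 16393302 to 16706981, plus strand), a membrane protein with thrombospondin repeats that in rat is made by the oligodendrocyte lineage and inhibits axon growth. Over the 20 libraries it gave 2404 of the 9350 exon reads of all guidance rows, or 25.7%. Its level was 465, 319, 379, 511 and 542 normalised CPM in 4AP and 232, 393, 410.03, 374 and 337 in 4AP control. The groups overlapped. The log2 fold change was 0.35 ± 0.25 (adjusted p = 0.339, edgeR). The other semaphorins tested ranged in log2 fold change up to 1.58 ± 0.55 for sema4c, a class 4 member (adjusted p = 0.0612, edgeR), and 11 of the 15 were above 0.

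Among the EphA receptors, 5 of 8 passed the filter, 1 rose and 1 fell. Both called genes encode receptor tyrosine kinases for A-class ephrins. The gene epha3 (chromosome 9, 16449398 to 16618607, plus strand) had 30.2, 45.5, 32.3, 43.8 and 59.7 normalised CPM in 4AP and 7.60, 12.3, 5.0004, 0 and 27.3 in 4AP control. The groups did not overlap, but control 5 was close to the lowest 4AP library. The 0 in control 4 stands for no read among 163158, where 3 reads would be 18.4 CPM. For epha3 the log2 fold change was 1.64 ± 0.51 (SE, adjusted p = 0.0412, edgeR).

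The gene epha6 (chromosome 1, 33969015 to 34201195, plus strand) had 30.2, 40.6, 41.8, 35.7 and 48.9 normalised CPM in 4AP and 91.2, 98.2, 125, 144 and 44.4 in 4AP control. Controls 1 to 4 were above every 4AP library and control 5 was among them. For epha6 the log2 fold change was -1.29 ± 0.35 (SE, adjusted p = 0.0246, edgeR). In fits without 1 library the call was lost in 9 of 10 for epha3 and 6 of 10 for epha6. The EphA gene with the most reads, epha7, had 55.3, 39.01, 60.6, 75.02 and 70.6 normalised CPM in 4AP and 3.80, 28.6, 15.001, 6.57 and 51.2 in 4AP control, with control 5 within the 4AP range (log2 fold change 1.27 ± 0.48, adjusted p = 0.0816, edgeR). The duplicates epha4a and epha4b had log2 fold changes of 0.46 ± 0.40 and 0.49 ± 0.37, neither called.

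No EphB receptor was called, of 3 tested. The B-class gene with the most reads, ephb2b, had a log2 fold change of 0.84 ± 0.45 (adjusted p = 0.197, edgeR). The receptor ephb4a, known for its part in vein formation, had 25.1, 30.1, 24.3, 30.2 and 28.1 normalised CPM in 4AP and 103, 119, 70.01, 6.57 and 15.9 in 4AP control. Controls 1 to 3, the same libraries that were high for nrp2b, were above all 4AP libraries, and controls 4 and 5 were below them. Among the ephrins, the ligands of Eph receptors, the A-class efna2a (log2 fold change 0.63 ± 0.48) and efna3a (0.89 ± 0.56) and the B-class efnb3b (1.25 ± 0.58) and efnb2a (0.33 ± 0.37) were tested and none was called.

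Netrins are secreted ligands of Dcc and Unc5 receptors, and both netrins tested, of 5, had a fold change above 1 on the log2 scale. The gene ntn1a (chromosome 6, 19804048 to 19926657, minus strand) had 72.9, 84.5, 60.6, 59.4 and 74.2 normalised CPM in 4AP and 34.2, 28.6, 20.002, 39.4 and 44.4 in 4AP control. The groups did not overlap. Its log2 fold change was 1.03 ± 0.32 (SE, adjusted p = 0.0431, edgeR), and the call was lost in 8 of 10 fits without 1 library. It is among the members with the most exon reads: 19, 62, 30, 73 and 44 in 4AP and 0, 3, 0, 1 and 27 in 4AP control. Among the controls, nearly all of these exon reads were in control 5. On exon reads alone the log2 fold change was 1.90 ± 0.61 (adjusted p = 0.0662, edgeR), and on intron reads alone -0.25 ± 0.40 (adjusted p = 0.759, edgeR). Each of these fits was scaled on its own kind of read, so neither value is on the scale of the main fit.

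Its duplicate ntn1b had 30.2, 41.4, 29.6, 37.3 and 35.3 normalised CPM in 4AP and 0, 4.09, 10.001, 6.57 and 35.3 in 4AP control. Control 5 lay within the 4AP range and the other controls below it (log2 fold change 1.23 ± 0.56, adjusted p = 0.135, edgeR). The receptor dcc was too low to be tested, with 15.1, 15.4, 8.08, 16.1 and 19.9 normalised CPM in 4AP and 0, 0, 10.001, 6.57 and 7.97 in 4AP control, 1 exon read in all 20 libraries and 194 intron reads. The repulsive netrin receptor unc5a had 22.6, 47.9, 44.5, 48.3 and 64.2 normalised CPM in 4AP and 26.6, 57.3, 20.002, 45.97 and 31.9 in 4AP control, all intronic and overlapping (log2 fold change 0.37 ± 0.39, adjusted p = 0.510, edgeR).

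No Slit or Robo gene was called, of 2 tested in each family. The secreted ligand slit2, of whose reads only 30.1% were intronic over the 20 libraries, had 62.9, 78.02, 75.5, 80.1 and 84.2 normalised CPM in 4AP and 83.6, 28.6, 20.002, 0 and 83.1 in 4AP control. Controls 1 and 5 were within the 4AP range and the other 3 below it (log2 fold change 0.67 ± 0.48, adjusted p = 0.323, edgeR). The Slit receptor robo1 had 80.5, 118, 128, 119 and 157 normalised CPM in 4AP and 49.4, 24.6, 145, 59.11 and 85.4 in 4AP control (log2 fold change 0.73 ± 0.38, adjusted p = 0.180, edgeR). The groups overlapped for both genes.

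Control 5 is the only control library that shares the prefix P2 with the 4AP libraries. In control 5 each of the 5 genes that rose was higher than in the P1 controls and lower than in all 4AP libraries. The latter follows from the groups of these 5 not overlapping. Each of the 3 that fell was lower in control 5 than in the P1 controls and within the 4AP range. Of the 44 tested rows, 29 were within the 4AP range in control 5. Control 5 was the highest control for 16 of the 44 and the lowest for 4. The shares over all genes tested were not counted, so these numbers cannot be called particular to guidance genes. When the fit held a term for the prefix, or only the P2 libraries (5 of 4AP and 1 of 4AP control, whose spread is then assumed to be like that of 4AP), no guidance gene and no other gene was called. At an unadjusted p under 0.05 (edgeR) there were 0 of the 44 rows and 106 of 5161 genes with the term, and 2 rows and 247 genes with P2 libraries alone. The median log2 fold change of all genes was 0.03 in both.

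In the fit with that term plxna3 had a log2 fold change of 0.88 ± 0.44, followed by 0.74 ± 0.52 for plxna1a, 0.68 ± 0.51 for nrp2a, 0.66 ± 0.56 for epha3 and 0.66 ± 0.46 for ntn1a. It was -0.16 ± 0.45 for epha6, 0.13 ± 0.51 for nrp2b and 0.57 ± 0.68 for sema4ab, all 8 with an adjusted p of 0.999 (edgeR). The prefix and the treatment can be told apart only through control 5. All P1 libraries are controls, so the fit with the term and that with P2 libraries only both set 4AP against control 5 alone. They rest on the same comparison and are not separate checks. For the 5 rises control 5 lay below every 4AP library, so values above 0 in these fits were given beforehand. Depth and the number of genes with a read moved with the prefix: 17096 to 22644 genes had a read in 4AP libraries, 20281 in control 5 and 9750 to 11048 in controls 1 to 4.

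**Figure D4:**
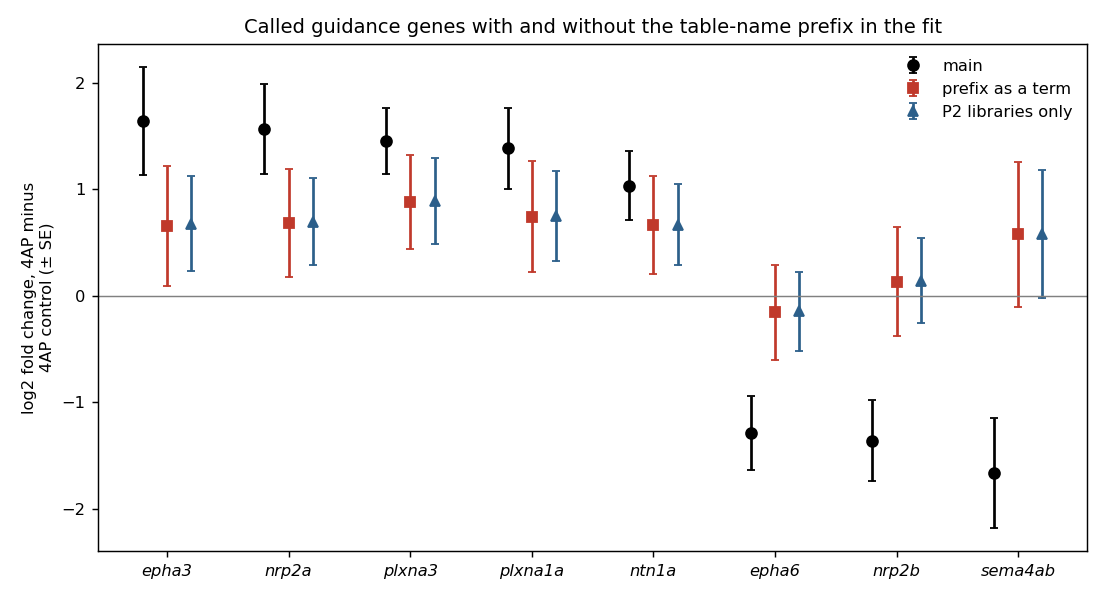
Log2 fold change (± SE) of the 8 called guidance genes in the comparison of all 10 libraries, with the table-name prefix as a term, and with P2 libraries only. The 5 rises stay above 0 and are smaller in both other fits, while nrp2b and sema4ab lie above 0 there and epha6 is near 0.

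The count also depended on single libraries. Without 4AP control 5 there were 23 called rows of 43 tested (53.5%), 18 higher and 5 lower, against 48.9% of all genes. Without any other library there were between 1 and 5. The 1 was without 4AP control 2 (1.72%, against 3.94% of all genes). The 5 was without 4AP 1 (8.93%, against 7.79%) and without 4AP 3 (12.2%, against 11.8%). Marker sums of other cell types also differed in mean between these groups, with ranges that overlapped for most lists. The 7 endothelial markers summed to 89.6 to 144 CPM in 4AP and 27.1 to 85.8 CPM in 4AP control, and the 11 neuronal markers to 541 to 746 CPM in 4AP and 297 to 670 CPM in 4AP control. The 9 microglia and macrophage markers summed to 488 to 620 CPM in 4AP and 550 to 1488 CPM in 4AP control, where c1qa had no read. The 9 markers of myelinating oligodendrocytes, the cells that OPCs become, summed to 991 to 2012 CPM in 4AP and 584 to 1305 CPM in 4AP control. The 4 mural and mesenchymal markers summed to 4231 to 9947 CPM in 4AP and 4408 to 5386 CPM in 4AP control. The part of these cells in the guidance levels was not tested.

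Further genes of the guidance pathways were described from a list of 80 (adaptors, exchange factors, other ligands and receptors), of which 71 were in the table. In the 4AP comparison 43 were tested, 4 were called higher and 1 lower, or 11.6% against the 13.1% of all genes. The netrin and repulsive guidance molecule receptor neogenin, neo1a, had 168, 141, 139, 156 and 186 normalised CPM in 4AP and 15.2, 28.6, 20.002, 52.5 and 104 in 4AP control. The groups did not overlap, and the log2 fold change of 1.71 ± 0.41 (adjusted p = 0.0151, edgeR) was called in all 10 fits without 1 library. The cell adhesion genes dscamb (1.38 ± 0.42) and dscaml1 (1.29 ± 0.41) and the exchange factor trioa (1.97 ± 0.63) rose. Their adjusted p (edgeR) was 0.0400, 0.0466 and 0.0470 in that order. In fits without 1 library these calls were lost in 7 of 10 for dscamb, 9 of 10 for dscaml1 and 9 of 10 for trioa. Over other settings they were lost in 6 of 14, 7 of 13 and 7 of 12 in that order. The Rac exchange factor dock1 fell by 1.82 ± 0.54 on the log2 scale (adjusted p = 0.0359, edgeR). Its level was 5537, 6372, 6129, 6171 and 5277 normalised CPM in 4AP and 6559, 47871, 38873, 6509 and 4669 in 4AP control, with 99.9% of reads intronic. Controls 2 and 3 were far above all other libraries, and the call of dock1 was lost in 7 of 10 fits without 1 library. Over 13 other settings its log2 fold change was -2.49 to 0.34, and it was above 0 in 2 of them.

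The demyelination comparison asks how OPCs differed after loss of myelin. Guidance rows summed to 7480.0, 5516, 8250.4, 6233 and 5212 normalised CPM in demyelination and 2837, 4327, 4213, 4566 and 4040.2 in demyelination control. On this scale all demyelination libraries were above all control libraries, but 2 genes, sema3gb and sema5a, carried much of this. The 2837 of demyelination control 1 stands for 9 reads. The mean sum in demyelination over that in demyelination control was 0.71 on the log2 scale and 0.61 without demyelination control 1. With library totals in place of TMM it was 0.09, and 0.30 without demyelination control 1. On library totals the groups also overlapped, with or without that library. The sums were then 4464 to 6423 CPM in demyelination, 3947 to 4648 CPM in demyelination controls 2 to 5 and 7627 CPM in demyelination control 1. Without both genes the sum averaged 4110 ± 1023 normalised CPM in demyelination (SD, n = 5) and 3096 ± 88.2 in demyelination controls 2 to 5 (SD, n = 4), and the groups overlapped. For semaphorins alone the sum averaged 3266 ± 1246 in demyelination and 1894 ± 242 in demyelination controls 2 to 5, and without both genes 838 ± 169 in demyelination and 703 ± 68.1 in these controls.

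Only 7 of the 94 rows and 823 genes in all passed the filter, and 0 guidance rows and 0% of all genes were called (edgeR). At an unadjusted p under 0.05 there was 1 guidance row of 7 (14.3%) and 9.48% of all genes, and DESeq2 called 5 genes, none of them a guidance gene. The row was robo1 (chromosome 15, 39277099 to 39820491, minus strand), a Slit receptor. It had 143, 214, 366, 242 and 314 normalised CPM in demyelination and 0, 119, 166, 143 and 113 in demyelination control. In demyelination control 1 the 0 stands for no read among 1180. Demyelination 1 lay within the range of controls 2 to 5, and the other 4 demyelination libraries were above every control. The log2 fold change was 1.01 ± 0.34 (adjusted p = 0.459, edgeR), above 0 in each of the 10 fits without 1 library.

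The next smallest p-values were those of plxna1a (log2 fold change 0.54 ± 0.32, adjusted p = 0.468, edgeR) and unc5a (0.56 ± 0.39, adjusted p = 0.607, edgeR). For plxna1a the levels were 114, 107, 212, 106 and 189 normalised CPM in demyelination and 0, 115, 134, 80.4 and 99.3 in demyelination control. The levels of unc5a were 371, 107, 308, 272 and 164 normalised CPM in demyelination and 315, 144, 149.9, 223 and 117 in demyelination control. Both overlapped between groups. The gene called most firmly after 4AP, plxna3, had 199.8, 80.3, 57.8, 136 and 163 normalised CPM in demyelination and 315, 155, 126, 134 and 126 in demyelination control, where the 315 of control 1 is 1 read (log2 fold change -0.06 ± 0.33, adjusted p = 0.960, edgeR).

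The level of sema5a was 199.8, 187, 3258, 363 and 177 normalised CPM in demyelination and 630.5, 664, 442, 527 and 307 in demyelination control. Demyelination 3 was far above the other 4 libraries of its group, with 146 exon and 23 intron reads, and 3 of the other 4 were below every control. The log2 fold change was 0.75 ± 0.82 with all libraries (adjusted p = 0.753, edgeR) and -1.12 without demyelination 3 (adjusted p = 0.209, edgeR). In demyelination 3 sema5a gave 75.6% of the exon reads of all guidance rows. The sum of 8 radial glia markers was 4379 CPM in this library, of which glula, the glutamine synthetase gene, alone gave 3885 CPM. In the other demyelination libraries the sum was 513 to 1070 CPM. The high sum was thus mostly that of 1 gene and not of the list, and the part of radial glia in the sema5a level was not tested.

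The secreted class 3 semaphorin sema3gb had 3312, 2838, 0, 1755 and 52.9 normalised CPM in demyelination and 0, 502, 631, 1072 and 618 in demyelination control. Its reads did not follow depth. In the 8 libraries other than demyelination 3 and demyelination control 1 it had 80 to 160 reads while library totals differed 92.1-fold, from 38314 to 3528970. Over the same 8 libraries the reads of robo1 ranged from 5 to 949. In demyelination 3 and demyelination control 1 sema3gb had 0 reads, and over all libraries 99.8% of its reads were intronic. Its normalised level in this experiment is therefore higher where the library is shallower, and the log2 fold change of 1.31 ± 1.08 (adjusted p = 0.639, edgeR) has to be read with that.

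**Figure D5:**
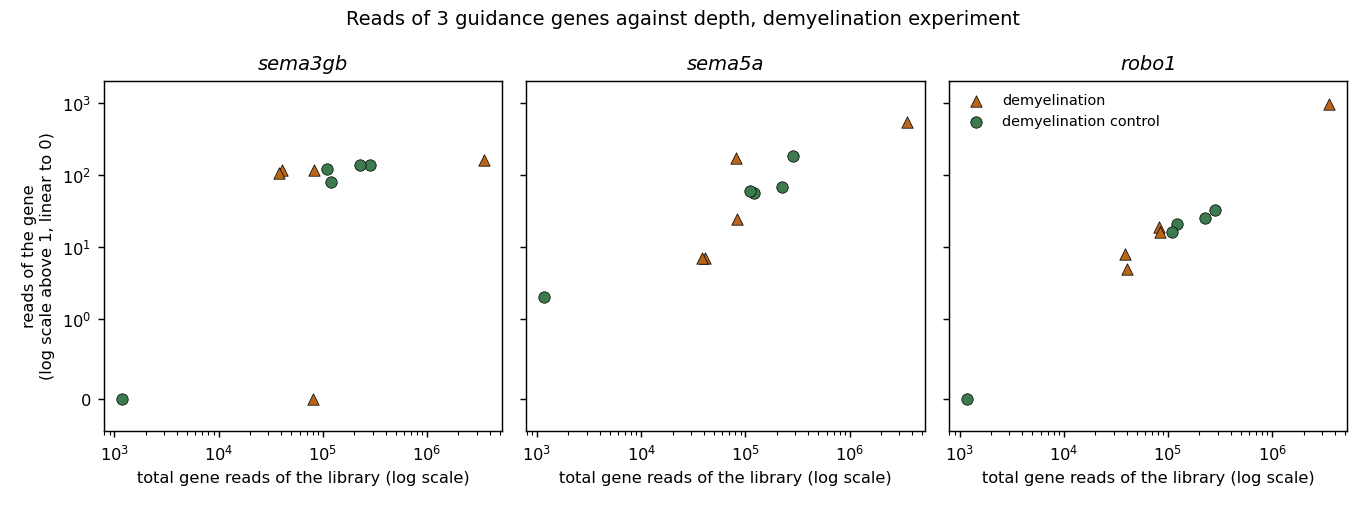
Reads of sema3gb, sema5a and robo1 against total gene reads in the 10 libraries of the demyelination experiment (triangles demyelination, circles demyelination control, both axes logarithmic with 0 shown at the bottom). Reads of robo1 rise with depth, those of sema3gb stay between 80 and 160 in 8 libraries, and sema5a lies above its trend in demyelination 3.

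Of the further pathway genes, 10 were tested in this experiment and none was called (edgeR, 2 at an unadjusted p under 0.05). Marker sums differed here too. The 9 genes of myelinating oligodendrocytes summed to 353 to 1756 CPM in demyelination and 1273 to 3221 CPM in demyelination controls 2 to 5. In the same order the 11 neuronal markers summed to 420 to 1279 and 529 to 837 CPM. The 6 exocrine pancreas genes summed to 4539 to 15036 and 5428 to 6503 CPM. For the 4 epidermal genes it was 1998 to 6779 and 2541 to 3274 CPM, and for the 6 muscle genes 1684 to 5026 and 2414 to 5448 CPM. All these ranges overlapped between groups, and the part of these cells in the guidance levels was not tested.

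The 2 responses were compared directly, as the 4AP fold change minus the demyelination fold change, in 1 fit of all 20 libraries. Of the 94 rows 38 were tested and 0 were called, against 1.66% of 3981 genes, and 5 rows (13.2%) had an unadjusted p under 0.05, against 16.4% of all genes (edgeR). DESeq2 called 0 guidance rows as well. The smallest p-values were those of plxna3, with a difference of 1.67 ± 0.51 on the log2 scale (adjusted p = 0.0777, edgeR), ephb4a with -2.17 ± 0.76 (adjusted p = 0.130, edgeR) and nrp2a with 1.77 ± 0.63 (adjusted p = 0.137, edgeR). Without 4AP control 5 there were 5 called rows of 39 tested (12.8%, plxna3, nrp2a, ntn1b, ephb4a and sema3fb), against 18.4% of all genes. With library totals in place of TMM plxna3 alone was called (2.63% of 38 rows), against 1.78% of all genes. Of 34 further pathway genes tested, cxcl12b, which encodes a chemokine that guides migrating cells through Cxcr4, differed between the responses by 2.01 ± 0.51 on the log2 scale (adjusted p = 0.0428, edgeR), a call lost in 16 of 20 fits without 1 library. It was not called for 4AP on its own (log2 fold change 0.77 ± 0.31, adjusted p = 0.105, edgeR) and was too low to be tested for demyelination on its own. Its levels were 111, 77.2, 88.9, 64.4 and 64.2 normalised CPM in 4AP and 41.8, 32.7, 55.004, 45.97 and 56.9 in 4AP control, and 28.5, 26.8, 77.1, 45.4 and 60.9 in demyelination and 0, 90.2, 103, 125 and 149 in demyelination control. Every demyelination library lay below demyelination controls 2 to 5, but the levels in demyelination 1 to 4 stand for few reads. In these libraries 3 reads would be 73.5, 78.3, 37.0 and 36.1 CPM in that order. The share of all genes that lay this way was not counted.

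Levels between genes were compared per length, as normalised CPM per kb of the gene's span. In 4AP the 3 highest guidance genes were efnb2a, a B-class ephrin (1.79 ± 0.25), sema5a (1.41 ± 0.30) and sema6dl (1.38 ± 0.38), and the ranges of neighbours in this order overlapped. Reads at transcript 3' ends need not scale with span, so this scale raises short genes: before division by span sema5a averaged 443 ± 92.6 normalised CPM in 4AP and efnb2a 42.01 ± 5.82. In 4AP control the highest was nrp2b (3.20 ± 1.81), whose spread over the 5 libraries is that of controls 1 to 3 against controls 4 and 5 (SD, n = 5 each).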

How the data were processed

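RNA from 20 samples of sorted OPCs was made into libraries of transcript 3' ends with a QIAseq UPX kit from 1 or 4 ng of RNA, per the labels' protocols. The amount behind each library is not given in the sources used here. The deposited tables hold, for each gene, counts of its total, unique, exon and intron reads, per the file headers, and GRCz11 is the genome build in the submitters' processing notes. The aligner, the use of strand and the use of molecular identifiers in counting are not given in the sources used here, so reads may include copies of a molecule, and limits for 0 reads cover counting error only.

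Members were found by gene name. Members, gene lists and tests were chosen with earlier results of these data known. Total gene reads were tested over all genes with edgeR 4.0.16 (filterByExpr with a minimum count of 10 and a minimum total of 15, TMM, robust quasi-likelihood test, limma 3.58.1, R 4.3.3) and called at an adjusted p under 0.05 (Benjamini-Hochberg). Each treatment was fitted with its control in 10 libraries, and the difference between the responses in 20. The genes named were all called members, the member of each family with the most reads, the 3 smallest p-values where none was called, duplicates of called members, and called genes of the list of 80. The genes sema3gb, plxna2, plxna4, sema4c, nrp1a, sema3fb, sema6dl and glula, and other uncalled members given by fold change alone, were added after their values were seen. Alternatives were other scaling (DESeq2 1.42.0 size factors, library totals), DESeq2's Wald test, other filters, exon, intron or unique reads, a threshold of 0.01, terms for the replicate number, the library total or the prefix, thinning and leaving out each library. Sums without sema3gb, sema5a or nrp2b, and sums on library totals without demyelination control 1, were added after seeing the data. In counts simulated for the 4AP comparison (5161 genes) 76 of 100 genes with a true log2 change of 2 were recovered, and 12 of 100 with 1. For demyelination (823 genes) these were 77 and 12, and for the difference (3981 genes) 8 and 0. The simulated counts held no shift between prefixes, and the changed genes were drawn from all genes tested. These numbers therefore do not give the recovery where prefix and treatment go together, or for guidance genes alone. All pairs of libraries in a group differed beyond sampling noise (chi-square test over genes), so none was treated as a copy of another.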

Additional observations from a re-analysis of the deposited data

Results flagged for a closer look

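A library was marked where its gap to the next library of its group was large for a group of 5 (Dixon's test, critical value 0.710). For normally distributed values chance gives this in about 1 of 20 groups. A gene with reads in only 1 library of a group is always marked, so such marks can follow depth alone. Of 83 groups tested 8 were marked. In 4AP control 5 ntn1b was at 35.3 normalised CPM, against 0 to 10.001 in the other controls. The low class 4 semaphorin sema4aa was at 5.69 normalised CPM in the same library, the deepest of its group, and 0 in the other controls. Both are values of the only control with prefix P2.

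In demyelination control 1, the library with 1180 reads, plxna3 and ephb4a were each at 315 normalised CPM, which is 1 read, against 126 to 155 for plxna3 and 15.8 to 27.1 for ephb4a in the other controls. There nrp2a was at 0, against 44.7 to 58.7 normalised CPM in the other controls. In demyelination 3 sema5a was at 3258 normalised CPM, against 177 to 363 in the other demyelination libraries, and ntn1a at 173, against 60.5 to 91.6. In demyelination 5, the deepest library, sema4aa was at 4.63 normalised CPM and 0 in the other demyelination libraries.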

How the results depend on the processing

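The count of called guidance genes for 4AP was 8 of 44 (18.2%, against 13.1% of all genes). It was 7 with DESeq2 size factors (15.9%, against 11.5%), 7 with library totals (15.9%, against 11.6%) and 10 with DESeq2's Wald test (22.7%, against 19.3%). Without a filter it was 7 of 93 (7.53%, against 3.84%). Under a filter that every library of 1 group has 10 or more reads it was 6 of 36 (16.7%, against 15.4%). With unique reads it was 8 of 42 (19%, against 13.7%). It was 0 with exon reads (7 genes tested, against 5.66% of all genes) and 3 of 32 with intron reads (9.38%, against 11.4%). At a threshold of 0.01 it was 1 (2.27%, against 2.58%). With libraries thinned to the smallest it was 3 of 8 (37.5%, against 16%). The count was 0, as over all genes, with a term for the library total and with a term for the prefix. Leaving out 1 library gave 1 (1.72%, against 3.94% of all genes) to 23 (53.5%, against 48.9%). Over all genes the count of 674 was 194 with exon reads, 165 with intron reads, 133 at 0.01, 265 thinned, 448 with the replicate block, 0 with each of the other terms and with P2 libraries only, and 271 to 2140 with 1 library left out. That for the difference, 66, was 104 with DESeq2's Wald test, 114 without a filter, 39 with exon reads, 3 at 0.01, 8 with the block, 0 with the prefix and 3 to 738 with 1 library left out (738 without 4AP control 5). For demyelination DESeq2's Wald test called 5 genes and edgeR without a filter 7. Library totals moved the median log2 fold change of all genes from 0.19 to 0.49. With the replicate number as a block 4 guidance genes were called (9.09%, against 8.68% of all genes). The same-numbered samples correlated by -0.04 to 0.11, so the numbers are not shown to pair samples. The block left the counts of guidance genes at 0 in the other 2 comparisons. For demyelination the count of guidance genes was 0 in all alternatives. For the difference it was 1 with library totals and 0 to 5 with 1 library left out. No alternative on the prefix was possible for demyelination, where all libraries share it.

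With intron reads the 4AP log2 fold change was -0.25 for ntn1a, -0.0643 for efna2a, -0.0943 for sema5a and -0.26 for unc5a. This fit was scaled on intron reads alone. All reads of unc5a were intronic, so its counts here were those of the main fit (0.37), and the scaling differed. With a term for the prefix it was 0.13 for nrp2b, 0.57 for sema4ab, -0.12 for slit2, 0.80 for ephb4a, -0.0028 for ntn1b and 0.34 for dock1. With P2 libraries only it was 0.14 for nrp2b, 0.58 for sema4ab, -0.11 for slit2, 0.81 for ephb4a and 0.34 for dock1. Both settings set the 4AP libraries against 4AP control 5 alone, so their likeness is not a separate check. For demyelination plxna3 was at 0.0108 with DESeq2 size factors and -0.26 to 0.0612 with 1 library left out (0.0612 without demyelination 3), and sema5a at -0.52 with intron reads, -0.34 with the replicate block and -1.12 to 1.02 with 1 library left out (-1.12 without demyelination 3). The cause of these shifts was otherwise not tested. At 38314 to 83149 reads in 4 of 5 demyelination libraries, most guidance genes had too few reads to be tested.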
